A study of Mus musculus with 8 samples.

Results

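The mouse MORC (microrchidia) genes Morc1, Morc2a, Morc2b, Morc3 and Morc4 were followed in whole testis of Alkbh5-null (KO) and wild-type (WT) males at postnatal days 12 (P12) and 18 (P18). These 5 genes were taken by name from a table of 38163 genes, and the set was chosen by the FPKM of Morc2b, which was much lower in both KO P12 libraries than in WT P12. The 4 groups are KO P12, WT P12, KO P18 and WT P18, each with 2 poly(A) RNA-seq libraries. ALKBH5 is a demethylase that removes N6-methyladenosine (m6A) from RNA, and the series asks what it does in spermatogenesis as spermatocytes pass from leptotene and zygotene, the main stages at P12 per the design text, to pachytene and diplotene at P18. The null allele, the strain, and whether the libraries of a group came from separate animals are not given in the sources used here, so the p-values measure only the spread between these libraries.

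MORC proteins are nuclear ATPases of the GHKL type that compact or silence chromatin, and most carry a CW zinc finger that can read methylated histone H3. MORC1 is a germ-cell protein needed for transposon silencing in male germ cells. MORC2A works with the HUSH complex, which silences retroelements and recently integrated sequences through histone H3 lysine 9 methylation. MORC2B is a rodent-specific germ-cell protein that arose by retrotransposition of Morc2a, and male and female mice that lack it arrest in meiosis. MORC3 forms nuclear bodies with PML and SUMO, and MORC4 is a widely expressed relative with a CW domain.

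Whether reads of Morc2b and Morc2a can be told apart depends on how far their sequences differ, so their coding starts are shown first. Morc2b (ENSMUSG00000048602, GRCm38 chr17:33113351-33139683, minus strand) has its 3069 coding bases in 1 exon, which encode 1022 residues. Morc2a (ENSMUSG00000034543, chr11:3649191-3690477, plus strand) spreads 3093 coding bases over 26 exons and encodes 1030 residues. The first 120 coding bases, from the GENCODE M21 transcripts of GRCm38, are printed with the bases that differ in capitals.
Morc2b: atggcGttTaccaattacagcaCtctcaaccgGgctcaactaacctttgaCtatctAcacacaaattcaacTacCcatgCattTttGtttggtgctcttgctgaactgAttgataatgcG
Morc2a: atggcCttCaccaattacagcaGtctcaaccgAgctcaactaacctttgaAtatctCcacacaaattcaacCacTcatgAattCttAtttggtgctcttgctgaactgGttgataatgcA
Here the copies differ at 13 positions with no gap.

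Over the whole coding alignment, 2440 of 3063 aligned bases (79.7%) were identical between Morc2a and Morc2b. The other 9 pairs of family members matched at 42.5% to 52.9% of aligned coding bases. The longest run that the Morc2a and Morc2b transcripts share without a mismatch is 38 bases and begins at coding base 1138 of both. It is shown in capitals within Morc2b, with 11 bases on either side, because it is the stretch most open to misassigned reads.
Morc2b: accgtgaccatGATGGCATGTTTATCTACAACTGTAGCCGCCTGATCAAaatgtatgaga
Of the 3563 windows of 150 bases in the Morc2b transcript, the read length here, 0 occur in Morc2a, and neither does any of its 50-base windows. Of 3682 windows of 31 bases, 8 (0.217%) do. These counts follow from the 38-base run and cover exact matches only. The assignment of reads with mismatches was not tested. Morc2a counts carry a different limit: 483 of its 6422 exon bases lie under exons of Tug1 on the opposite strand, and the strand setting of the counter is not given in the sources used here. The exons of the other 4 members overlap exons of no other annotated gene.

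Morc1 (ENSMUSG00000022652, chr16:48431237-48630900, plus strand) has 27 coding exons and encodes 950 residues. Morc3 (ENSMUSG00000039456, chr16:93832121-93876073, plus strand) has 17 and encodes 942 residues. Morc4 (ENSMUSG00000031434, chrX:139821632-139871654, minus strand) has 16 and encodes 883 residues. As ALKBH5 acts on m6A, the transcripts were searched on the sense strand for GGACT, 1 form of the m6A consensus. It occurred 1.77 times per kb in Morc2a, 1.35 in Morc2b, 1.13 in Morc4, 0.328 in Morc1 and 0.239 in Morc3, against a median of 1.01 over 39997 protein-coding transcripts of at least 1000 bases. Such a match is a description of the letters and not a measured m6A site.

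The targeted gene was read first, as a check of the labels. Alkbh5 had 0.0564 and 0.0218 FPKM (fragments scaled by transcript length and library depth) in the KO P12 libraries, against 10.2 and 17.8 FPKM in the WT P12 libraries. At P18 it had 17.9 FPKM in the library labelled KO replicate 1 and 0.155 FPKM in KO replicate 2, against 0.00985 FPKM in the library labelled WT replicate 1 and 9.07 FPKM in WT replicate 2. KO replicate 1 and WT replicate 1 at P18 therefore went against their labels. P18 values are given by library under the labels as deposited, and the fitted P18 differences of the MORC genes are also given without these 2 libraries.

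The libraries held 58417668 to 71537841 counts each. Marker genes showed a further split at P18 along the same lines: the 12 pachytene and diplotene markers summed to 1822 FPKM in the library labelled KO replicate 1 and 109 FPKM in KO replicate 2, against 103 FPKM in WT replicate 1 and 1359 FPKM in WT replicate 2. In KO replicate 1, Ldhc alone had 841 FPKM and Ybx2 520 FPKM. All of these markers but Cdc25c and Acrv1 were higher in KO replicate 1 and WT replicate 2 than in the other P18 libraries. The 8 liver genes instead followed the genotype label, with sums of 213 and 202 FPKM under the KO P18 label, against 4.42 and 3.79 FPKM under the WT P18 label, and to at most 3.89 FPKM in any P12 library. Alb, the main plasma protein of the liver, reached 119 FPKM in the first and 111 FPKM in the second of the KO P18 libraries. The part of liver RNA in the P18 values of the MORC genes was not tested.

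Morc2a and Morc3 were the abundant members and kept within a narrow band, while Morc2b covered a 467-fold range of FPKM over the 8 libraries. The highest value over the lowest was 2.27 for Morc1, 2.24 for Morc4, 1.35 for Morc3 and 1.32 for Morc2a. In both KO P12 libraries the order of FPKM was Morc2a, Morc3, Morc1, Morc4, Morc2b. In both WT P12 libraries, and at P18 in the libraries labelled KO replicate 2 and WT replicate 1, Morc2b stood above Morc4 and below Morc1. In those P18 libraries the gap was small, at 3.38 FPKM for Morc1 and 3.19 FPKM for Morc2b in KO replicate 2, and at 3.15 and 2.89 FPKM in WT replicate 1. In KO replicate 1 and WT replicate 2 at P18, Morc2b was the most abundant of the 5. The neighbours Morc2a and Morc3 lay close, with a Morc3 to Morc2a ratio between 0.638 and 0.999.

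**Figure D1:**
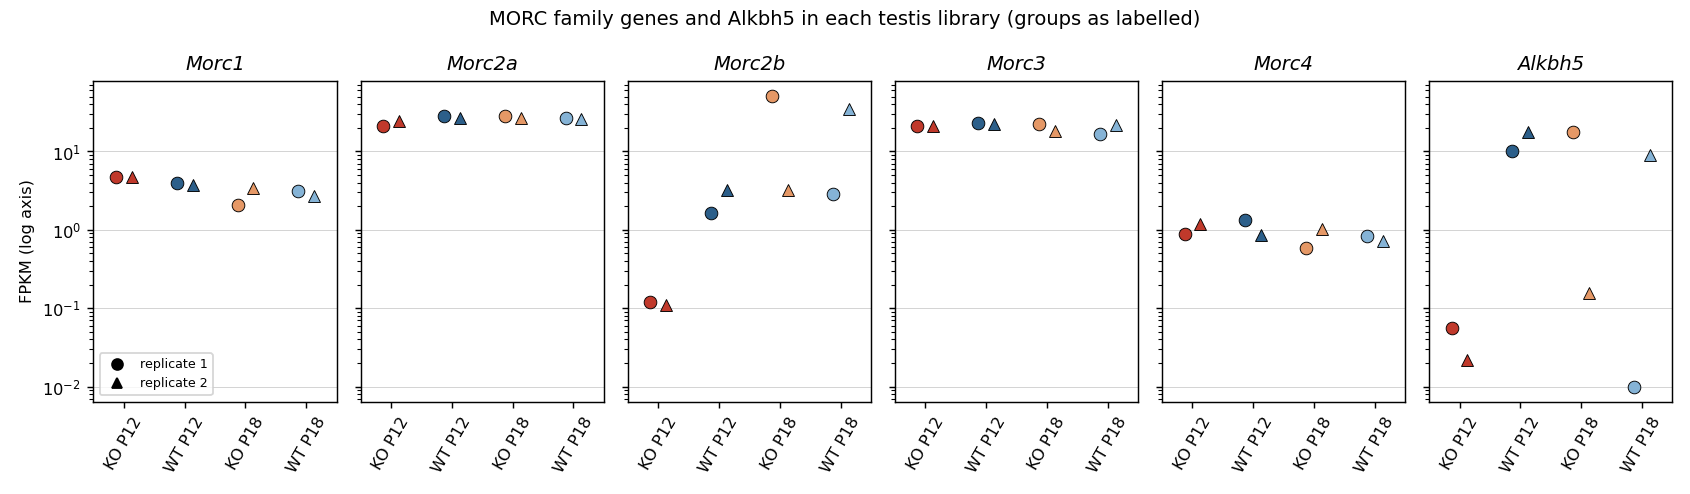
FPKM on a log axis for the 5 MORC genes and Alkbh5, with 1 point per library (circle for replicate 1, triangle for replicate 2) and the groups as labelled. Morc2b runs from 0.110 to 51.6 FPKM, whereas Morc2a stays between 21.4 and 28.1 FPKM, and at P18 the high Morc2b points are the libraries with high Alkbh5.

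At P12, Morc2b, the meiotic retrocopy, had 0.120 and 0.110 FPKM in KO testes, against 1.63 and 3.22 FPKM in WT testes. These values rest on 39 and 35 counts in KO testes and 491 and 962 counts in WT testes. The groups did not overlap, and the WT mean was 21.1 times the KO mean, but the WT libraries also differed from each other, with 491 and 962 counts. The log2 difference was -4.34 ± 0.38 (SE, edgeR, n = 2 each). Because this contrast chose the gene, the value is a description. Of 16541 genes in this fit, 112 had a lower log2 difference than Morc2b.

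With the edgeR quasi-likelihood test and a Benjamini-Hochberg adjusted p under 0.05, Morc2b was the only member of 5 among the genes called in this contrast. The background was 9 of 16541 genes (0.0544%), all lower in KO, and 2271 genes had an unadjusted p under 0.05. Nothing is read from this count, since the contrast was used to choose Morc2b. The call was also lost without KO replicate 1 (adjusted p = 0.126, edgeR quasi-likelihood test) or KO replicate 2 (adjusted p = 0.0538, same test), with a lower filter or none, in both limma fits and with all 8 libraries in the fit.

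Its source gene Morc2a had 21.4 and 24.6 FPKM in KO P12 testes, against 28.1 and 26.8 FPKM in WT P12 testes. Both KO values lay below both WT values, with a log2 difference of -0.24 ± 0.08. The Morc2b to Morc2a ratio was 0.00561 and 0.00449 in KO P12 testes and 0.0582 and 0.120 in WT P12 testes. Tug1, the noncoding gene that overlaps Morc2a, had 19.1 and 17.3 FPKM in KO P12 testes and 17.8 and 17.7 FPKM in WT P12 testes, and those groups overlapped.

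Morc1, the transposon-silencing member, had 4.68 and 4.70 FPKM in KO P12 testes, against 3.96 and 3.76 FPKM in WT P12 testes. It was the member with both KO values above both WT values, and its log2 difference was 0.29 ± 0.09. Morc3, the PML body protein, had 21.4 and 21.3 FPKM in KO P12 testes and 22.8 and 22.6 FPKM in WT P12 testes, a log2 difference of -0.07 ± 0.07. Morc4 had 0.877 and 1.18 FPKM in KO P12 testes and 1.33 and 0.850 FPKM in WT P12 testes, which overlapped, with a log2 difference of -0.07 ± 0.27. In all, 3 members were lower without overlap and 1 was higher without overlap, beside 24.2% of tested genes lower and 21.5% higher without overlap. Morc2b, which this contrast chose, is 1 of the 3 lower members, so nothing is read from this count.

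All 5 genes passed the filter of at least 1 FPKM in at least 2 of the 8 libraries, Morc1, Morc2a and Morc3 in all 8. Morc2b passed in 6 libraries, none of them KO P12, and Morc4 in 3.

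**Figure D2:**
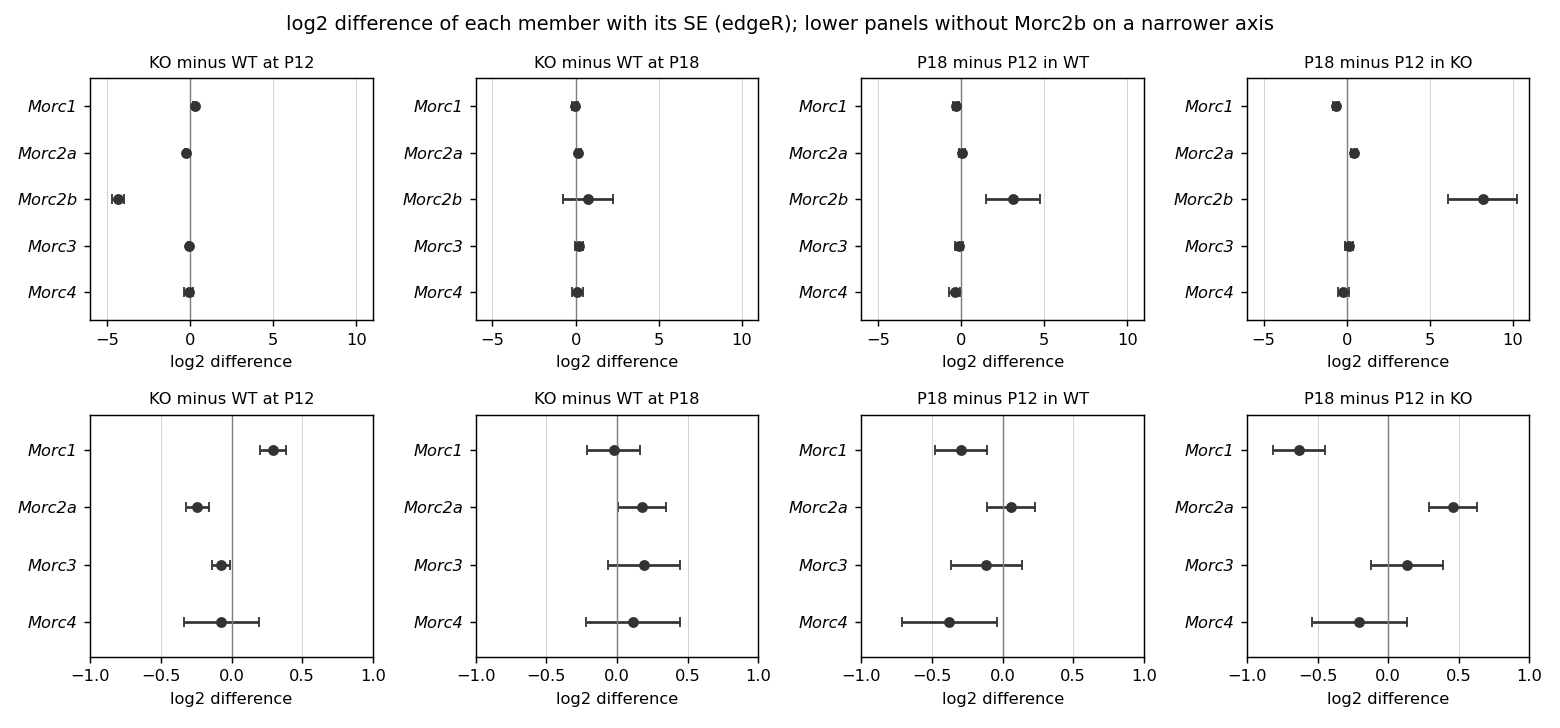
Log2 differences from edgeR with their SE for each member in 4 comparisons; the upper panels hold all 5 genes and the lower panels leave out Morc2b on a narrower axis. Morc2b has the widest differences and, in the 3 comparisons with P18 libraries, SEs of 1.52 to 2.09.

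Other genes of the chromatin pathways in which MORC proteins work were read in the same P12 contrast. Of 9 HUSH complex genes and partners, 8 were lower and 1 higher in KO P12 testes, with a median log2 difference of -0.16 beside 0.01 over all tested genes, and 0 of 9 were called by edgeR. Mphosph8, which encodes the chromodomain subunit of HUSH, had a log2 difference of -0.28 ± 0.07. The H3K9 methyltransferase gene Setdb1 had -0.16 ± 0.08 and the corepressor gene Trim28 had -0.02 ± 0.08. Of 6 genes of PRDM9 and its histone-mark partners, 5 were lower and 0 were called. Prdm9, which encodes the methyltransferase that marks recombination hotspots, had 6.03 and 8.93 FPKM in KO P12 testes, against 11.6 and 11.9 FPKM in WT P12 testes, a log2 difference of -0.64 ± 0.17. Zcwpw1, which encodes a reader of that mark, had a log2 difference of -0.30 ± 0.10. The more abundant genes of that list lay near 0, with -0.06 ± 0.08 for Hells, -0.06 ± 0.07 for Cxxc1 and 0.02 ± 0.06 for Ewsr1.

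Of 17 tested transposon-silencing genes of germ cells, of 18 listed, 13 were lower and 0 were called, with a median log2 difference of -0.21. Mov10l1, the piRNA helicase gene, had -0.58 ± 0.09, the germ-cell helicase gene Ddx4 had -0.30 ± 0.08 and Mael, a piRNA pathway gene, had -0.17 ± 0.09. Of 9 tested genes of PML bodies and SUMO, of 10 listed, 7 were higher, 2 lower and 0 called, with a median of 0.10. Its most abundant gene, Sumo2, had 33.6 and 81.6 FPKM in KO P12 testes and 43.2 and 37.5 FPKM in WT P12 testes, a log2 difference of 0.52 ± 0.35. KO replicate 2 alone stood above the WT libraries, and KO replicate 1 lay below both. DESeq2 called 3 genes of the HUSH list, 1 of the PRDM9 list and 7 of the transposon-silencing list, all lower, beside 3.27% of tested genes called lower and 0.713% called higher.

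Stage and cell type markers moved beside these values. All 12 leptotene and zygotene markers were lower in KO P12 testes without overlap, beside 24.2% of all tested genes, with a median log2 difference of -0.56 and summed levels of 344 and 443 FPKM, against 573 and 632 FPKM in WT P12 testes. Of 11 tested pachytene and diplotene markers, 10 were lower, with a median of -1.55. That list of 12 summed to 40.1 and 45.01 FPKM in KO P12 testes and 78.6 and 114.9 FPKM in WT P12 testes. All 10 Sertoli cell markers were higher, with a median of 0.22 and sums of 926 and 899 FPKM in KO P12 testes, against 762 and 742 FPKM in WT P12 testes. None of these markers was called by edgeR. DESeq2 called 9 of the leptotene and zygotene and 6 of the pachytene and diplotene markers lower, and 4 Sertoli markers higher. Over all tested genes it called 3.27% lower and 0.713% higher. The 10 spermatogonial markers had a median of 0.02. In whole testis, fewer cells of a type and less RNA per cell cannot be told apart, and the part of cell composition in the MORC values was not tested.

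At P18, Morc2b had 51.6 FPKM in the library labelled KO replicate 1 and 3.19 FPKM in KO replicate 2, against 2.89 FPKM in the library labelled WT replicate 1 and 34.5 FPKM in WT replicate 2. Each labelled group held 1 high and 1 low library, so the groups overlapped. The 2 high libraries were those with 17.9 and 9.07 FPKM of Alkbh5. The log2 difference between the labelled groups was 0.74 ± 1.52 (adjusted p = 1, edgeR quasi-likelihood test, Benjamini-Hochberg). The split is common among genes: 30.4% of 16702 tested genes were higher in KO replicate 1 and WT replicate 2 than in the other 2 P18 libraries, as Morc2b was, and 50.9% were lower in both.

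Morc2b made up 49.3% of the summed FPKM of the family in the library labelled KO P18 replicate 1 and 6.04% in KO P18 replicate 2, against 5.77% in WT P18 replicate 1 and 40.3% in WT P18 replicate 2. At P12 it made up 0.248% and 0.213% in KO testes and 2.83% and 5.63% in WT testes. The summed FPKM of the 5 genes was 105 and 85.7 in the high P18 libraries and between 48.4 and 57.7 in the other 6. The Morc2b to Morc2a ratio was 1.83 in KO P18 replicate 1 and 0.118 in KO P18 replicate 2, against 0.110 in WT P18 replicate 1 and 1.31 in WT P18 replicate 2.

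**Figure D3:**
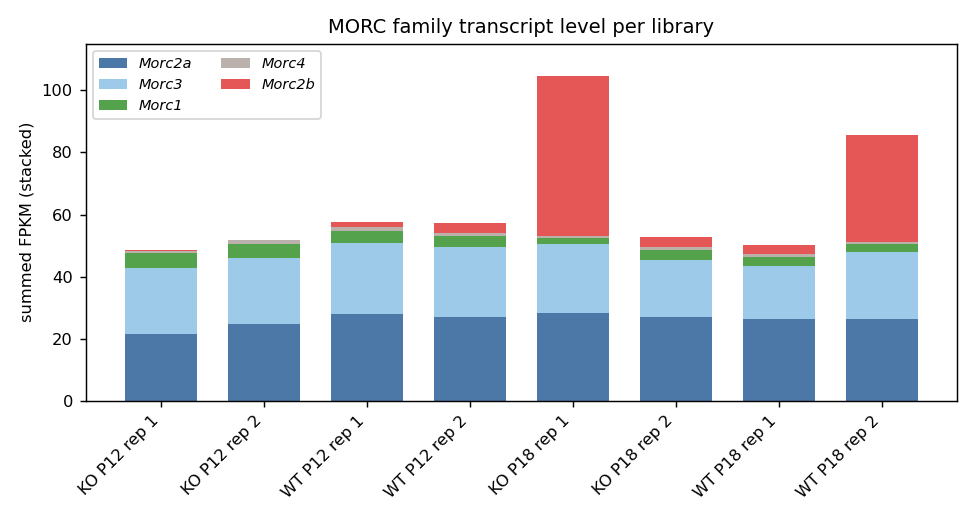
Summed FPKM of the 5 MORC genes in each library, stacked by gene, with libraries named as labelled. The Morc2b block makes up 49.3% and 40.3% of the bar in KO P18 replicate 1 and WT P18 replicate 2, while Morc2a and Morc3 fill most of every other bar.

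The 4 relatives did not pass the test between the labelled P18 groups. The values of Morc1 were 2.07 and 3.38 FPKM under the KO P18 label and 3.15 and 2.67 FPKM under the WT P18 label, a log2 difference of -0.03 ± 0.18. Its low library, KO replicate 1, was the highest for Morc2b. Morc2a stood at 28.1 and 27.0 FPKM under the KO P18 label, against 26.4 and 26.3 FPKM under the WT P18 label, a log2 difference of 0.17 ± 0.17. Both values under the KO label lay above both under the WT label, as for 3.38% of tested genes. Morc3 stood at 22.2 and 18.3 FPKM under the KO P18 label and 16.9 and 21.5 FPKM under the WT P18 label, a log2 difference of 0.19 ± 0.25. Morc4 stood at 0.593 and 1.02 FPKM under the KO P18 label and 0.845 and 0.711 FPKM under the WT P18 label, a log2 difference of 0.11 ± 0.33. Every adjusted p was 1 with edgeR, which called 0 of 16702 genes in this comparison (0.0%). There were 189 genes with an unadjusted p under 0.05, and DESeq2 called 75 genes (0.449%) and limma 27, none of them a MORC gene.

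Without the libraries labelled KO P18 replicate 1 and WT P18 replicate 1, 1 library is left in each P18 group, and its spread is assumed to be like that of the P12 groups. In that fit Morc2b was lower in the library labelled KO P18 replicate 2 than in WT P18 replicate 2, by a log2 difference of -3.58 ± 0.43. Morc3 was also lower, by -0.38 ± 0.09. Morc1 had 0.19 ± 0.14, Morc2a -0.11 ± 0.12 and Morc4 0.38 ± 0.41. With 1 library on each side these values are a description, and nothing is read from the calls of that fit. The same 2 libraries differed in pachytene and diplotene markers, with a median log2 difference of -3.69 over the 11 tested. Sertoli markers had a median of 0.62, beside 0.02 over all tested genes.

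With age, the P18 libraries stood beside the P12 libraries of the same label. Each P18 mean below includes a library that went against its label. Under the WT label Morc2b averaged 18.7 ± 22.4 FPKM at P18 and 2.43 ± 1.12 FPKM at P12 (SD, n = 2 each), a log2 difference of 3.12 ± 1.64. Its P18 libraries bracketed 1 of the P12 libraries: the library labelled WT P18 replicate 1 had 2.89 FPKM, between the WT P12 values of 1.63 and 3.22 FPKM. Under the KO label Morc2b averaged 27.4 ± 34.2 FPKM at P18 and 0.115 ± 0.0067 FPKM at P12 (SD, n = 2 each), a log2 difference of 8.18 ± 2.09. Even the lower library labelled KO P18, at 3.19 FPKM, lay above both KO P12 libraries. Without the 2 libraries that went against their labels, the log2 difference was 4.01 ± 0.34 in WT and 4.75 ± 0.42 in KO. For Morc2b these are descriptions, since the P12 libraries chose it.

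Morc1 was the member that was lower at P18 without overlap under both labels. Under the WT label it had 3.15 and 2.67 FPKM at P18, against 3.96 and 3.76 FPKM in WT P12 testes, a log2 difference of -0.30 ± 0.18 (adjusted p = 0.614, edgeR quasi-likelihood test). Under the KO label it had 2.07 and 3.38 FPKM at P18, against 4.68 and 4.70 FPKM in KO P12 testes, a log2 difference of -0.63 ± 0.19 (adjusted p = 0.262, edgeR quasi-likelihood test). DESeq2 gave the KO difference as -0.59 ± 0.18 with an adjusted p of 0.0153, in a comparison where it called 3.69% of genes lower. Both tools ran on groups in which 1 P18 library goes against its label. Without those libraries, the edgeR log2 difference of Morc1 was -0.35 ± 0.13 in WT and -0.47 ± 0.13 in KO, again not called. That fit leaves 1 library in each P18 group, so these values are a description. Groups without overlap were common with age, at 31.3% of genes lower in WT and 33.5% lower in KO.

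Morc2a had a log2 difference of 0.06 ± 0.17 with age in WT and 0.46 ± 0.17 in KO, where its libraries labelled P18 lay above both P12 libraries, as for 22.2% of genes (adjusted p = 0.262, edgeR quasi-likelihood test). In WT, the FPKM of Morc2a, Morc3 and Morc4 were each lower in both P18 libraries than in both P12 libraries, beside 31.3% of genes, so that for Morc2a the FPKM and the fitted difference have opposite signs. Morc3 had -0.11 ± 0.25 in WT and 0.13 ± 0.25 in KO, and Morc4 had -0.38 ± 0.33 in WT and -0.20 ± 0.33 in KO. Without the same libraries, the KO difference was 0.24 ± 0.10 for Morc2a and -0.21 ± 0.08 for Morc3, and the WT difference was 0.12 ± 0.10 for Morc2a and 0.11 ± 0.08 for Morc3, none called. Morc4 then had -0.44 ± 0.36 in WT and -0.0030 ± 0.35 in KO. None passed with all libraries either, and edgeR called 0 of 16702 genes in either age comparison (0.0%), with 1082 unadjusted p-values under 0.05 in WT and 3180 in KO. DESeq2 called 408 genes (2.44%) in WT, none of them a MORC gene, and 2386 (14.3%) in KO, Morc1 and Morc2b among them. Whether the age difference of any member differs between KO and WT was not tested.

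Across the 8 libraries, the genes whose log2(FPKM + 1) followed Morc2b most closely were Rsph1, Pdcl2, Adam2, Clgn, Hsf5, Taf7l2, D1Pas1, Ldhc, Tcam1 and Stk33. Their Pearson r with Morc2b lay between 0.997 and 0.998, as a description over 8 libraries that share depth scaling and the P18 split. Of 12757 genes compared, 68 reached an r of 0.99. Rsph1, a radial spoke gene of the axoneme, had 18.3 and 20.6 FPKM in KO P12 testes and 40.9 and 67.2 FPKM in WT P12 testes. At P18 it had 798 and 76.1 FPKM under the KO label, against 76.9 and 580 FPKM under the WT label. Ldhc, the lactate dehydrogenase gene of germ cells, had 1.15 and 1.895 FPKM in KO P12 testes and 6.55 and 15.2 FPKM in WT P12 testes. At P18 Ldhc had 841 and 21.2 FPKM under the KO label, against 16.5 and 672 FPKM under the WT label.

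The log2 differences of the 10 genes at P12 ran from -2.90 for Adam2, a sperm surface gene, to -0.77 for the helicase gene D1Pas1. Their direction is not a separate result, since they were picked for likeness to Morc2b over libraries that include the P12 ones. Adam2 and Ldhc are also in the pachytene and diplotene list. For Morc2b and for all 10 genes, KO replicate 1 and WT replicate 2 at P18 stand above the other 6 libraries, and r was not computed without them.

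**Figure D4:**
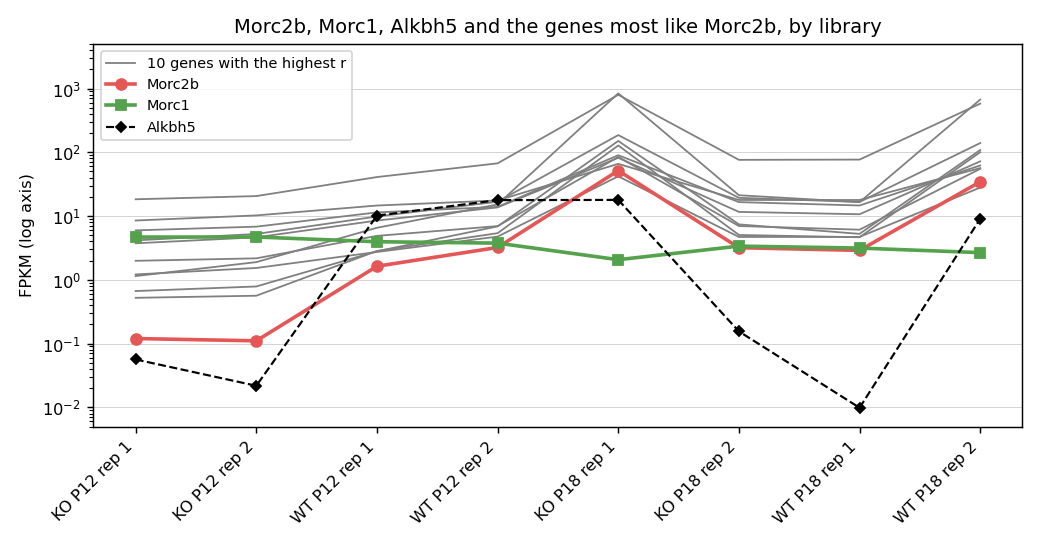
FPKM on a log axis by library for Morc2b (red), Morc1 (green), Alkbh5 (dashed black) and the 10 genes with the highest r with Morc2b (grey); lines join the values of 1 gene and libraries are named as labelled. Morc2b and the grey genes peak in KO P18 replicate 1 and WT P18 replicate 2.

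The relatives had other companions. Morc1 ran opposite to Morc2b, with an r of -0.96 over the 8 libraries. The depth scaling and the P18 split are shared by these r too. As Morc1 was, 50.9% of 16702 tested genes were lower in KO replicate 1 and WT replicate 2 than in the other P18 libraries. Of 12757 genes compared, 772 reached an r of 0.95 with Morc1 and 4 reached 0.99, against 925 and 68 with Morc2b. The genes most like Morc1 were Tmem246, Slc7a6os and Atp23, each at an r of 0.991. Those most like Morc2a were Osbpl8 (r = 0.980), Xpr1 (0.948) and Smarca5-ps (0.933). Those most like Morc3 were Ccdc134 (0.970), Sdad1 (0.959) and Ddx52 (0.958), and those most like Morc4 were Nfkbid (0.968), Lrrc47 (0.952) and Uaca (0.947). Among the pairs within the family, Morc1 with Morc4 had an r of 0.74 and Morc2b with Morc4 -0.75, while Morc3 had an r between 0.01 and 0.14 with each of the others. Morc2a and Morc2b, the pair closest in sequence, had an r of 0.58.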

How the data were processed

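Whole-testis poly(A) RNA was sequenced in 8 libraries, with second-strand dUTP marking per the labels' protocols. The tools listed in the submitters' processing notes are HISAT2 2.2.1, StringTie 2.1.6 and cutadapt 1.9, with the build GRCm38. The deposited table gives FPKM and whole-number counts per gene; the counter is not given in the sources used here. Counts were scaled by TMM and tested with edgeR 4.0.16 (R 4.3.3, quasi-likelihood F-test, two-sided, Benjamini-Hochberg adjustment over all genes tested, threshold 0.05), on genes with at least 1 FPKM in at least 2 libraries. KO against WT at P12 was fitted on the 4 P12 libraries, and the other comparisons on all 8 with 1 shared spread (4 residual degrees of freedom). The SE is the log2 difference over the square root of F. Samples were grouped by labelled genotype and age. Alternatives were DESeq2 1.42.0, limma 3.58.1 on log2(FPKM + 1), other scaling, filters and pseudocount, a replicate block, and leaving out libraries. Transcripts of GENCODE M21 were aligned with MAFFT 7.526. The edgeR and DESeq2 fits of KO against WT were run on simulated counts at each age. The simulation did not hold the split between P18 libraries, so it cannot show how the fits handle that split. The members, lists and tests were chosen with earlier results of these data known. Besides the 5 members, Alkbh5, Prdm9 and Zcwpw1, genes named were the 3 most abundant of a list and those most like a member (10 for Morc2b, 3 for each relative, among genes with a mean of at least 1 FPKM); the liver and stage lists are shown mainly by their sums. The remaining lists were Leydig cells (median log2 difference 0.26 at P12), peritubular and stromal cells (-0.11), and macrophages and blood (-0.05). Some genes that this rule names are not reported here.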

Additional observations from a re-analysis of the deposited data

How the results depend on the processing

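Each group has 2 libraries, and in each P18 group 1 of them goes against its label. In KO against WT at P12, 9 genes and 1 MORC gene, Morc2b, were called. This contrast chose Morc2b, so its calls are a description. The number of genes was 23 with RLE scaling, 659 with DESeq2 and 442 with the replicate block, where Morc2b had a log2 difference of -4.26. The number was 1 with limma on log2(FPKM + 0.1), and 0 with no filter, with a 0.1 FPKM filter, with limma on log2(FPKM + 1) and with all 8 libraries. In those 4 settings and in limma with 0.1, 0 MORC genes were called. Leaving out 1 library gave 6 to 208 genes and 0 to 1 MORC genes: 208 without WT replicate 1, 37 without WT replicate 2, 48 without KO replicate 2 and 6 without KO replicate 1. Morc2b was not called without either KO library. Its log2 difference stayed between -4.74 and -1.58 in all 12 alternatives. The -1.58 came from limma on log2(FPKM + 1), and limma on log2(FPKM + 0.1) gave -3.48. Morc4 lay between -0.36 and 0.28.

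In KO against WT at P18, 75 genes were called with DESeq2, 27 and 2 with limma at pseudocounts of 1 and 0.1, 6357 genes and 2 MORC genes without the 2 libraries against their labels, and, chosen after seeing the data, 6498 and 2 with DESeq2 on those libraries and 89 with the numbers crossed. The log2 differences that turned were 0.19, -0.11, -3.58 and -0.38 for Morc1, Morc2a, Morc2b and Morc3 in edgeR without the 2 libraries and 0.18, -0.12, -3.59 and -0.40 in DESeq2. The fits without the 2 libraries leave 1 library in each P18 group, so nothing is read from their calls. Leaving out 1 library gave 0 calls and log2 differences of -0.22 to 0.15 for Morc1, -0.041 to 0.36 for Morc2a, -2.68 (without KO replicate 1) to 3.56 for Morc2b, -0.15 to 0.47 for Morc3 and -0.13 to 0.32 for Morc4.

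With age in WT, DESeq2 called 408 genes, and the fit without the 2 libraries 7507 and 1 MORC gene, with Morc3 at 0.11; limma put Morc2a at -0.056 and -0.058 with pseudocounts of 1 and 0.1. Leaving out 1 library gave -0.0087 to 0.12 for Morc2a, -0.38 to 0.11 for Morc3 and 0.30 (without WT P18 replicate 2) to 4.01 for Morc2b. With age in KO, the calls were 5 without a filter, 2386 and 2 MORC genes with DESeq2, 31 and 4 with limma at pseudocounts of 1 and 0.1 (median of all genes -0.13 and -0.17, against 0.02 with edgeR), and 1806 and 1 MORC gene without the 2 libraries. Morc3 turned to -0.077 and -0.080 with limma and to -0.21 without the 2 libraries, and leaving out 1 library gave -0.21 to 0.41 for Morc3, -0.45 to 0.011 for Morc4 and 4.75 to 9.11 for Morc2b. The causes were not tested. The age fits without the 2 libraries each tested 16702 genes and leave 1 library in the P18 group. In both, the 1 MORC gene called was Morc2b, which the P12 libraries chose. Nothing is read from the calls of these fits. The difference of replicate 1 from replicate 2 was correlated over genes between the groups compared. The r was -0.05 at P12, -0.94 at P18, 0.28 in WT and -0.09 in KO. With 2 libraries per group, these r cannot show whether the numbers pair libraries. The replicate block called 0 genes in the 3 comparisons other than KO against WT at P12.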
